A study of Homo sapiens with 52 samples.

Results

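Scavenger receptors are surface proteins with which macrophages take up modified lipoproteins, haemoglobin, microbes and dying cells. The 9 genes followed here were CD163, MARCO, MSR1, CD36, SCARB1, STAB1, OLR1, CD68 and MERTK, chosen by their symbols in the count tables of THP-1 macrophages (61209 genes) and of 2 hepatoblastoma lines (62696 genes). All 9 had a row in both tables. The filter on low counts was passed by 7 of the 9 in THP-1 (not MSR1 or CD68), by 7 in Huh6 (not MARCO or CD68) and by 3 in HepG2 (CD36, SCARB1 and MERTK).

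The receptors are grouped into classes by structure, and share ligands more than they share sequence. MARCO and MSR1 are class A receptors with collagen-like stalks that bind bacteria, particles and acetylated lipoproteins. CD36 and SCARB1 are class B receptors: CD36 takes up oxidised low-density lipoprotein and fatty acids, and SCARB1 exchanges cholesterol with high-density lipoprotein and is abundant in liver. OLR1 (LOX-1) binds oxidised low-density lipoprotein, STAB1 (stabilin-1) clears matrix fragments and modified proteins in macrophages and sinusoidal endothelium, and CD68 is a lysosomal glycoprotein used as a macrophage stain. CD163 takes up haemoglobin bound to haptoglobin and is a common marker of tumour-associated macrophages. MERTK is a receptor tyrosine kinase that recognises phosphatidylserine on dying cells through the bridging proteins GAS6 and PROS1.

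THP-1 is a monocytic leukaemia line, made into macrophages here with the phorbol ester PMA. In the co-culture experiment (21 libraries, 7 groups) these macrophages were kept alone or spent 24 h in direct contact with HepG2 or Huh6 cells, and were then sorted. The tumour cells were untreated or had received iMDK at 5 or 10 µM for 24 h beforehand; iMDK lowers the growth factor midkine. The labels do not say whether the untreated tumour cells of the co-cultures received vehicle. In the other experiment HepG2 (13 libraries) and Huh6 (18 libraries) were grown alone for 48 h with vehicle, with iMDK at 5 or 10 µM, or with PKF118-310 at 0.2, 0.3 or 0.4 µM; PKF118-310 blocks the binding of beta-catenin to TCF, and 0.4 µM was given to Huh6 only. Every group had 3 libraries except HepG2 with 0.3 µM PKF118-310, which had 1 and enters no test. Each cell type is 1 established line, and the labels do not say whether the libraries of a group came from separate cultures, so p-values measure only the spread between these libraries.

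THP-1 libraries held 12.6 to 16.9 M counts (M, 1000000), Huh6 18.2 to 19.9 M and HepG2 18.3 to 20 M. Macrophage markers summed to 5730 to 5900 counts per 1000000 counts (CPM) in THP-1 alone, with CSF1R at 1070, ITGAM at 1190 and SPI1 at 621 CPM, and with C1QA and FCGR1A of the 14 markers at 0. Reads of the tumour cells remained after sorting: they were estimated from hepatoblastoma markers at 8.32 to 9.95% of a library with untreated HepG2 and 0.375 to 1.8% with untreated Huh6, falling to 1.66 to 3.5% and 0.15 to 0.197% at 10 µM iMDK. Markers of undifferentiated THP-1 cells, such as PRTN3 and ELANE, summed to 17.8 to 23.5 CPM alone, 48.4 to 66.9 with HepG2 and 37.8 to 49.7 with Huh6. THP-1 libraries numbered 1 stood apart from numbers 2 and 3 for several receptors, as described under each, and each main THP-1 result was recomputed without the 7 of them.

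The loci of the receptors whose transcripts changed in THP-1 are given on GRCh38 with GENCODE 29 gene models. MARCO spans chr2:118942166-118994660 on the plus strand, STAB1 spans chr3:52495338-52524495 on the plus strand, MERTK spans chr2:111898479-112029561 on the plus strand and OLR1 spans chr12:10158301-10172138 on the minus strand. The remaining receptors with a position used here are CD163 (chr12:7470813-7503893, minus), CD36 (chr7:80369575-80679277, plus), SCARB1 (chr12:124776856-124882668, minus) and CD68 (chr17:7579467-7582113, plus). The 250 bases before the RefSeq start (GRCh38.p14) are printed for 3 receptors that moved in macrophages, 1 that rose and 2 that fell, so that their composition can be compared. Capitals mark the core of the site of PU.1, a master factor of macrophages, written GAGGAA and searched on both strands together with the AP-1 site TGANTCA and the antioxidant response element TGACNNNGC.
MARCO: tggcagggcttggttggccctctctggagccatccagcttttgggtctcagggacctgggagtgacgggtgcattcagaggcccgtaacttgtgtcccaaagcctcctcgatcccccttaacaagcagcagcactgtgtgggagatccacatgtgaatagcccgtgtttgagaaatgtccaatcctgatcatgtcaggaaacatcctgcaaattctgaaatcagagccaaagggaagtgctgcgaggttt
STAB1: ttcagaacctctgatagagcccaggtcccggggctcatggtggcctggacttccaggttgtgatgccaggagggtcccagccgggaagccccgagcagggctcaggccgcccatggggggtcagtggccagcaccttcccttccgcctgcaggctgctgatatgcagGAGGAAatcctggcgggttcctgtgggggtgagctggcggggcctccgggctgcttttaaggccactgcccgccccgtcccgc
MERTK: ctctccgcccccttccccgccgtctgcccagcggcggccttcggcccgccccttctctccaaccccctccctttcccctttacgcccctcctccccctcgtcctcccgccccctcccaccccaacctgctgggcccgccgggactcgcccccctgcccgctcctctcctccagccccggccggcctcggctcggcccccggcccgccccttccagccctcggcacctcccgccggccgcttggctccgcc
These windows lie at chr2:118941944-118942193, chr3:52495088-52495337 and chr2:111898357-111898606, all on the plus strand. G and C made up 53.2% of the MARCO window, 67.6% of that of STAB1 and 78.8% of that of MERTK. STAB1 holds 1 PU.1 core, 83 bases before its start, while the windows of MARCO and MERTK hold none of the 3 motifs. Among 35116 RefSeq promoters of the same length, 23.6% hold the PU.1 core, 6.57% the AP-1 site and 10.9% the antioxidant response element, so that the match in STAB1 is a common one.

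In THP-1 macrophages kept alone, MERTK and CD36 were the most abundant of these transcripts per length and MSR1 was close to the floor. Per kilobase of exon, MERTK stood at 67.2 CPM, CD36 at 45.9 and SCARB1 at 20.9, followed by CD163 at 4.02, MARCO at 3.07, STAB1 at 3.04 and OLR1 at 2.97. The libraries of MERTK, CD36 and SCARB1 did not overlap with each other on this scale, whereas those of CD163 overlapped with STAB1 and OLR1, and those of MARCO, STAB1 and OLR1 overlapped with one another. MSR1 had 5, 8 and 7 counts in the 3 libraries, and 2 to 14 in any THP-1 library, so no change in it was testable in macrophages; with untreated Huh6, tumour reads would give 11.1 to 112% of its level.

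**Figure D1:**
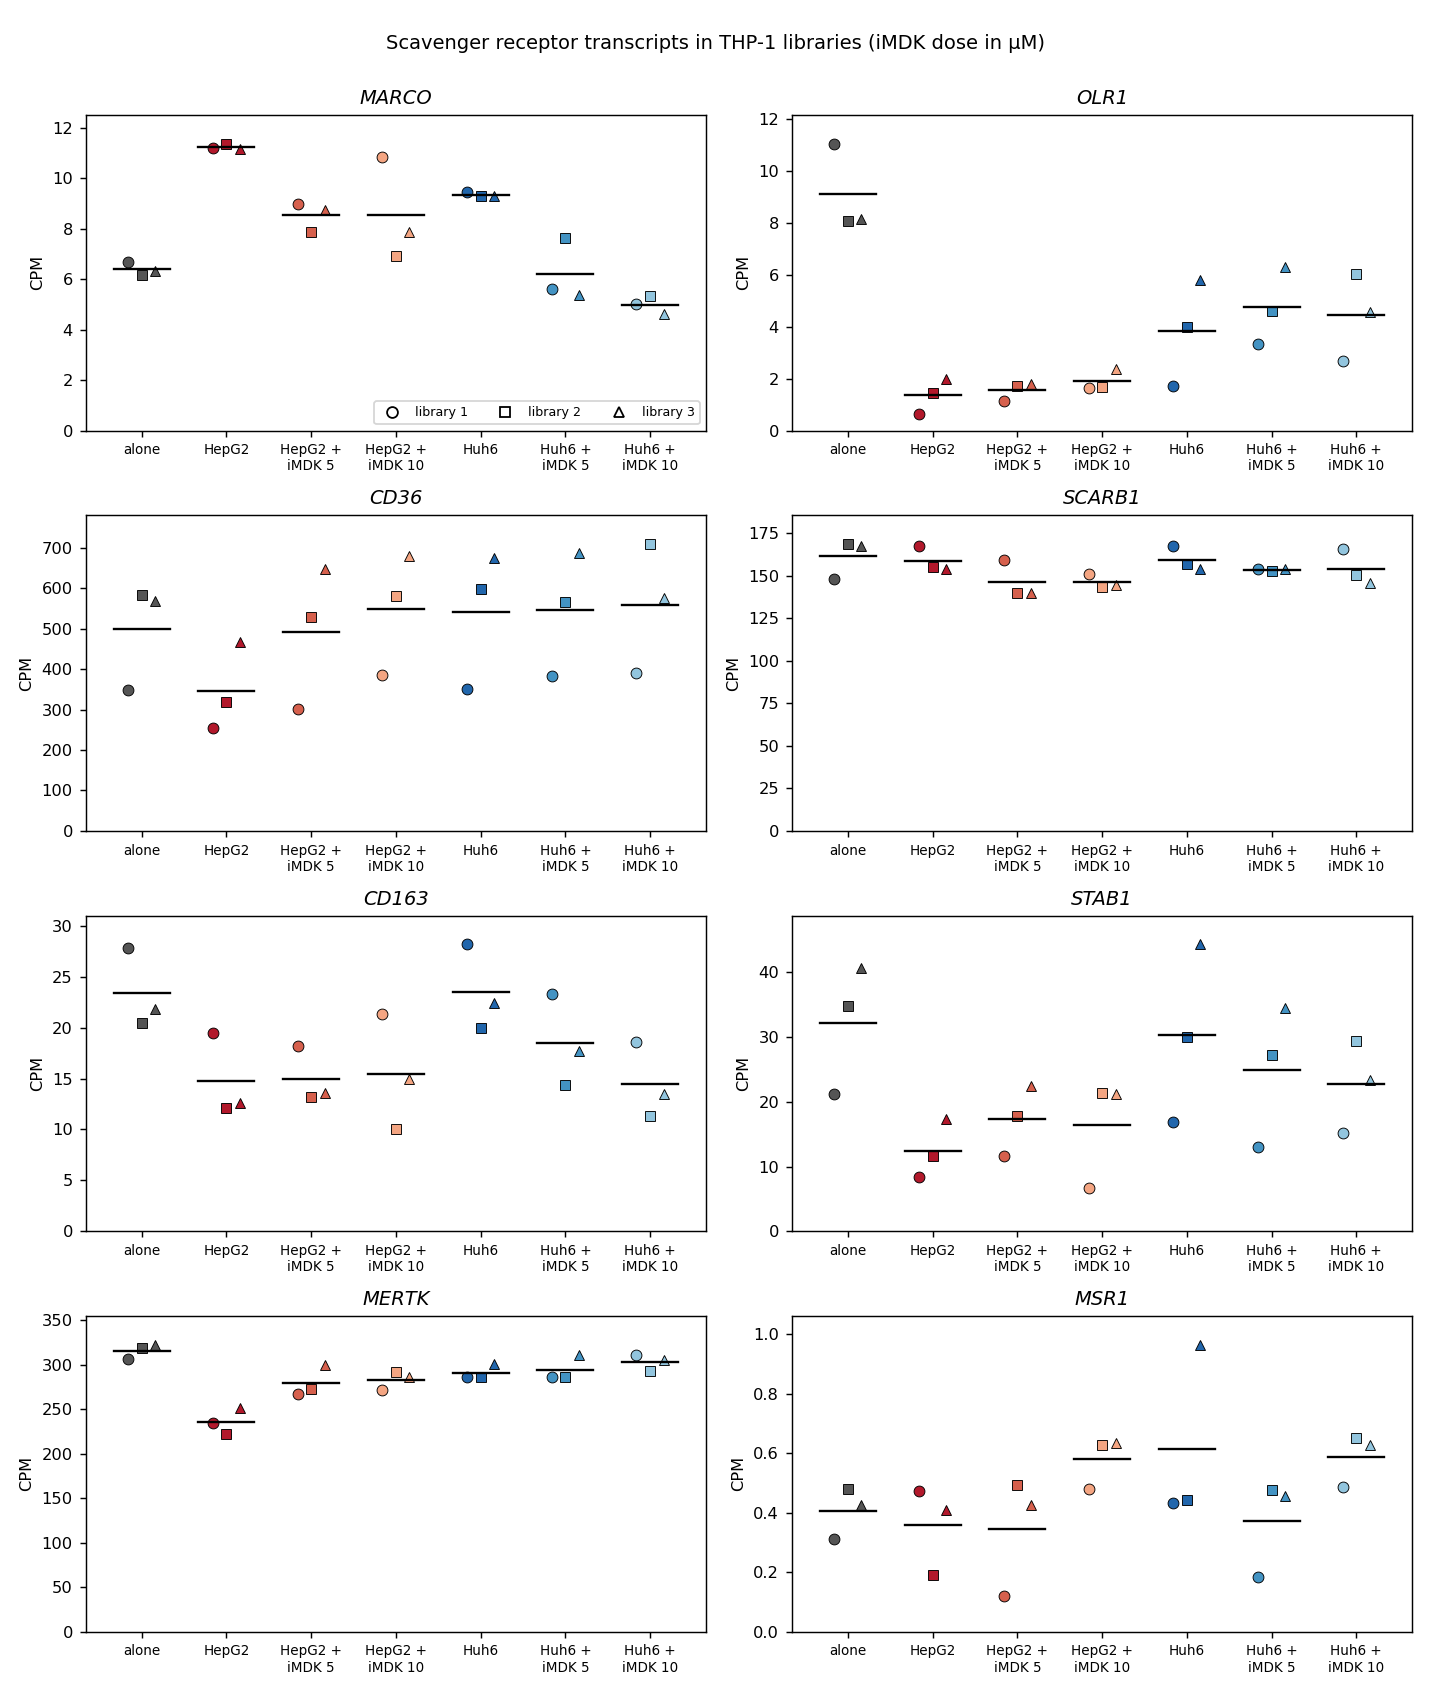
Level of 8 scavenger receptor transcripts (vertical axis, CPM on a linear scale from 0) in each THP-1 library, by group (horizontal axis: alone, with HepG2, with Huh6, and the iMDK dose in µM); symbols give the library number and bars the group mean. With untreated HepG2, MARCO lay at 11.1 to 11.4 CPM against 6.16 to 6.68 alone, and OLR1 at 0.651 to 1.97 against 8.08 to 11.04.

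CD68, the usual stain for macrophages, was listed at 0 in all 52 libraries. Its neighbour EIF4A1 was also listed at 0 in all of them, although EIF4A1 encodes a translation factor that every cell uses. The nearby genes SENP3 and MPDU1 had 51 to 138 and 847 to 1392 counts per THP-1 library. In GENCODE 29, 1789 of the 2189 exonic bases of CD68 (81.7%) also belong to the processed transcript AC016876.2 on the same strand. The value of 0 therefore says nothing about CD68 expression here, and no statement is made on it. Whether the same limit holds for the other markers given at 0 (C1QA, FCGR1A, LYVE1, CLEC4M and CLEC4G) was not tested. For the other receptors the overlap with neighbouring exons was small, 1.05% of STAB1 with NT5DC2 on the opposite strand and 0.654% of CD163 with CD163L1.

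Contact with HepG2 cells moved 4 of the 7 receptors that could be tested in THP-1: MARCO rose, and OLR1, STAB1 and MERTK fell. Among all 15500 genes tested in this comparison 21.6% passed the threshold (adjusted p under 0.05), 12% higher and 9.68% lower. The median log2 fold change of the 7 receptors was -0.53, beside -0.01 for all genes. The 3 libraries of one group did not overlap the 3 of the other for 5 of the 7 (the 4 and CD163), which was so for 35.9% of all genes. In pools of cells such as these, fewer cells that carry a transcript and less transcript per cell cannot be told apart.

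MARCO, which binds bacteria and unopsonised particles, measured 6.68, 6.16 and 6.31 CPM in macrophages alone and 11.2, 11.4 and 11.1 CPM with HepG2. Every co-cultured library was above every library alone, and the spread within each group was small (6.38 ± 0.264 and 11.2 ± 0.124, SD, n = 3). The log2 fold change was 0.81 ± 0.16 (SE), or 1.76-fold, with an adjusted p of 6.43e-04. HepG2 cells with vehicle had 0 counts of MARCO, so the estimated tumour reads contribute none of this level.

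OLR1 showed the largest fold of the 7. It measured 11.04, 8.08 and 8.14 CPM alone and 0.651, 1.46 and 1.97 CPM with HepG2, the latter resting on 11, 23 and 29 counts. All 3 co-cultured libraries were low, and library 1 was both the highest alone and the lowest in co-culture. OLR1 was 6.72-fold lower (log2 fold change -2.75 ± 0.40, adjusted p = 2.47e-05). HepG2 cells had 0 counts of OLR1 in every group.

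STAB1 measured 21.2, 34.8 and 40.6 CPM alone and 8.40, 11.6 and 17.4 CPM with HepG2. The groups did not overlap, but each was wide, and library 1 was the lowest in both. STAB1 was 2.60-fold lower (log2 fold change -1.38 ± 0.42, adjusted p = 0.0216). This call rests on single libraries: the adjusted p was 0.0605 and 0.0925 without library 2 or 3 of the macrophages alone, and 0.0985 and 0.0754 without library 1 or 2 of the co-culture. It was 0.0507 after the estimated tumour reads were subtracted, at a log2 fold change of -1.18. Of the markers of sinusoidal endothelium, the other cell type known for STAB1, only 3 could be tested and 0 passed. LYVE1, CLEC4M and CLEC4G were at 0 and PECAM1 stood at 683 CPM in macrophages alone. The cultures held THP-1, HepG2 and Huh6 cells, with no endothelial line.

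MERTK measured 307, 319 and 323 CPM alone and 234, 222 and 252 CPM with HepG2. The difference was modest but far outside the spread (316 ± 8.25 and 236 ± 15.1). MERTK was 1.34-fold lower (log2 fold change -0.42 ± 0.07, adjusted p = 8.86e-05). HepG2 cells express MERTK themselves, at 117 CPM, so that 3.84 to 4.94% of the co-culture level was estimated to be tumour RNA. This share does not reflect that tumour reads also enter the total to which CPM are scaled. Set against the Huh6 co-culture, subtraction of tumour reads made the difference in MERTK smaller, as given below. On the scale of library totals its ligand gene GAS6 stood at 4.23 CPM alone and 3.10 with HepG2, and PROS1 at 69 and 90 CPM, of which HepG2 reads would give up to 12.6.

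CD163, CD36 and SCARB1 did not pass the threshold. CD163 measured 27.8, 20.5 and 21.8 CPM alone and 19.5, 12.1 and 12.6 with HepG2. The groups were just separate, and library 1 was the highest in both (log2 fold change -0.66 ± 0.25, adjusted p = 0.0595). Without the 7 libraries numbered 1 the adjusted p of CD163 was 0.0062, and with the library number as a block it was 1.89e-05. CD163 was also called by DESeq2 (adjusted p = 0.044), with only the groups compared (0.0328) and without library 1 of the HepG2 co-culture (0.0226).

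CD36 measured 348, 583 and 567 CPM alone and 253, 319 and 466 with HepG2, with library 1 the lowest in both groups (log2 fold change -0.53 ± 0.31, adjusted p = 0.244). Without the libraries numbered 1 its adjusted p was 0.019, and with the block 1.05e-04. These 2 alternatives, the first of them chosen after the data were seen, thus turn CD163 and CD36 into lower calls beside the 3 above. Both were also called by edgeR without the filter on low counts (adjusted p = 0.000259 for CD163 and 5.3e-07 for CD36). SCARB1 measured 148, 169 and 168 CPM alone and 168, 155 and 154 with HepG2. Its groups overlapped (log2 fold change -0.02, 95% interval -0.17 to 0.12), and 14.9 to 19.6% of the co-culture level, or 26 to 31.1 CPM, was estimated to come from HepG2 reads.

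Tumour RNA and immature THP-1 markers moved with this comparison, in which 21.6% of all genes passed. All 21 of 21 hepatoblastoma markers were higher with HepG2 (their sum was 57.5 to 72.1 CPM alone and 3110 to 3730 CPM in co-culture). Among the markers of undifferentiated cells, 4 of the 5 tested were higher: PRTN3 (3.73 to 14.6 CPM), ELANE (3.66 to 9.75), AZU1 (8.55 to 21.3) and MYB (3.92 to 8.88). Among macrophage markers 1 of 12 tested changed, CD14, which was lower by -0.41, and their sum was 5850 to 6510 CPM. The part of the immature markers in the receptor changes was not tested.

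Other genes of the same functions were counted in 5 lists, to be read beside the 21.6% of all genes called (12% higher and 9.68% lower). Of 12 other scavenger receptors tested (18 listed), 2 were higher and 5 lower with HepG2, with a median log2 fold change of -0.43. CLEC7A, the beta-glucan receptor dectin-1, fell from 16.03 to 8.39 CPM, SCARF1 from 7.72 to 4.46 and SSC5D from 111 to 70.8. SCARF2 rose from 0.952 to 3.97 CPM, but HepG2 cells hold 29.3 CPM of it and the estimated tumour reads alone would give 2.43 to 2.91 CPM.

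Of 16 genes of apoptotic cell uptake tested (20 listed), 7 were higher and 1 lower, with a median of 0.41. Among all genes 12% were higher and 9.68% lower. AXL, the sister receptor of MERTK, rose from 18.1 to 32.9 CPM (log2 fold change 0.86 ± 0.31, adjusted p = 0.0489), of which HepG2 reads would account for 1.36 to 1.63 CPM. ADGRB1 (BAI1), another phosphatidylserine receptor, rose from 21.4 to 36.6 CPM and HepG2 cells hold 0.277 CPM of it. DOCK1 and THBS1 also passed, at 4.49 and 0.684 CPM in co-culture on the scale of library totals. These levels were below the 9.26 to 11.1 and 6.44 to 7.70 CPM that the estimated tumour reads would give. Alone, DOCK1 and THBS1 stood at 0.0618 and 0 CPM, so they passed the filter through co-cultures. Their rise was thus largely set by the filter, and their part in the 7 is no separate support. MERTK thus fell in the same libraries in which AXL and ADGRB1 rose.

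Of 20 lipid handling genes tested, 3 were higher and 3 lower. This count and those of haem and lysosome genes stand beside 21.6% of all genes called (12% higher and 9.68% lower). PPARG, a nuclear receptor known to drive CD36, fell from 142.5 to 96.8 CPM, ACSL1 fell from 241 to 170 CPM and NCEH1 from 88.2 to 63.0, while NPC1 rose from 47.1 to 69.7 CPM, of which HepG2 reads would give 9.66 to 11.5. In haem handling, the biliverdin reductases BLVRB (37.4 to 62.6 CPM) and BLVRA (18.9 to 28.98 CPM, of which HepG2 reads would give 5.64 to 6.74) rose and NR3C1, the glucocorticoid receptor, fell from 175 to 123 CPM. In all, 3 of 13 haem genes were higher and 1 lower. Of 11 endosome and lysosome genes tested 3 were higher, CTSB, CTSS and CD63, by 0.33 to 0.36 on the log2 scale, and 0 were lower.

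With Huh6 cells, no receptor passed the threshold against macrophages alone: 0 of 7 by edgeR, where 1.83% of all genes passed. At an unadjusted p under 0.05 there were 2, MARCO and OLR1, which DESeq2 called. MARCO measured 9.45, 9.28 and 9.30 CPM with Huh6, above every library alone, as with HepG2 (log2 fold change 0.55 ± 0.16, adjusted p = 0.0915).

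OLR1 measured 1.73, 3.98 and 5.78 CPM with Huh6, below every library alone (log2 fold change -1.25 ± 0.36, adjusted p = 0.0852). Huh6 cells hold OLR1 at 21.2 CPM, and 1.43 to 21.7% of these values was estimated to be tumour RNA. The adjusted p by DESeq2 was 0.0497 for MARCO and 0.0313 for OLR1, and both were also called with the block (0.0328 and 0.00242). MERTK measured 286, 286 and 301 CPM (log2 fold change -0.12, 95% interval -0.25 to 0.01). STAB1 measured 16.8, 29.9 and 44.3 CPM, CD163 28.2, 19.96 and 22.4, CD36 352, 597 and 676 and SCARB1 168, 157 and 154 CPM, all overlapping with macrophages alone. Both co-cultures were compared with the same 3 control libraries.

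The other lists were also nearly without calls in the Huh6 co-culture, where 1.83% of all genes passed. Of the 5 lists, 1 gene was higher, DOCK1, whose 1.23 CPM lay within the 0.306 to 1.47 CPM that Huh6 reads would give. The rise of DOCK1 was largely set by the filter, as with HepG2. The 1 gene that was lower was VLDLR, a lipoprotein receptor that fell from 65.8 to 43.5 CPM. Hepatoblastoma markers were higher for 14 of 21, with a sum of 178 to 511 CPM, and PRTN3 and AZU1 were higher among the markers of undifferentiated cells (2 of 5).

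Set directly against each other, macrophages with HepG2 had less OLR1, STAB1 and MERTK than macrophages with Huh6, 3 of 7 receptors, all lower, beside 16.7% of all genes (7.55% lower). MERTK separated fully, at 222 to 252 CPM against 286 to 301 (log2 fold change -0.30 ± 0.07, adjusted p = 0.00379). OLR1 (log2 fold change -1.50 ± 0.42, adjusted p = 0.0164) and STAB1 (-1.29 ± 0.42, adjusted p = 0.0401) overlapped between the groups. After subtraction of the estimated tumour reads none of the 3 passed, at adjusted p of 0.0566 for OLR1, 0.0753 for STAB1 and 0.0546 for MERTK. The log2 differences were then smaller, at -1.25 for OLR1, -1.11 for STAB1 and -0.20 for MERTK. With only the groups compared MERTK was at 0.0505 and OLR1 at 0.0546, and by DESeq2 STAB1 was at 0.0591. Without library 3 of the Huh6 co-culture OLR1 was at 0.149 and STAB1 at 0.242, and both were also lost without library 2 of it (0.0532 and 0.0932) or library 1 with HepG2 (0.095 and 0.161). STAB1 was at 0.126 without library 2 with HepG2.

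MARCO was 11.2 CPM with HepG2 and 9.34 with Huh6, without overlap, at a log2 difference of 0.26 (95% interval -0.04 to 0.57). CD163 differed by -0.68 ± 0.25 (adjusted p = 0.0662), again without overlap, and CD36 by -0.65 (adjusted p = 0.164). Both were called with the block (2.87e-05 and 1.85e-05), without the filter (0.00032 and 4.68e-10) and without the libraries numbered 1 (0.00859 and 0.00575). CD163 also passed by DESeq2 (0.0496), with only the groups compared (0.0399) and without library 1 with HepG2 (0.0298). SCARB1 differed by -0.01, with a 95% interval of -0.15 to 0.14. Among the other scavenger receptors CLEC7A was also lower with HepG2, by -1.06 on the log2 scale, and COLEC12 stood at 1.82 CPM with Huh6 against 0.165 with HepG2, where Huh6 cells hold 332 CPM of it and their reads would give 1.25 to 5.98 CPM. SIRPA, the receptor of the signal that restrains engulfment, was lower by -0.47, at 821 against 1134 CPM.

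After the HepG2 cells had received iMDK, MERTK was higher in the macrophages. At 5 µM the 3 libraries measured 267, 273 and 300 CPM, and at 10 µM 272, 292 and 286 CPM, all above the 222 to 252 CPM with untreated HepG2 and below the 307 to 323 CPM alone. At 10 µM MERTK was the 1 receptor of 7 that passed (log2 fold change 0.26 ± 0.07, adjusted p = 0.0349), where 3.34% of all genes passed and 0.645% were higher. The call depends on the processing: the adjusted p was 0.136 after subtraction of tumour reads, 0.244 with only the groups compared, 0.199 without the filter, 0.0853 without the libraries numbered 1, and 0.1 to 0.198 in 4 of the 6 fits that left out 1 library (library 1 or 2 with untreated HepG2, 2 or 3 with 10 µM). After the subtraction the log2 fold change of MERTK at 10 µM was 0.19. At 5 µM 0 of 7 passed by edgeR (MERTK 0.25 ± 0.07, adjusted p = 0.143), with 0.0903% of all genes called. There, 2 had an unadjusted p under 0.05, MERTK and MARCO, and DESeq2 called 1, MERTK (adjusted p = 0.0367).

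The library numbers met the rule for pairing in the 5 µM comparison. Blocked by number, MERTK (0.25 ± 0.05, adjusted p = 0.00694) and CD36 (0.48 ± 0.10, adjusted p = 0.00501) were both higher at 5 µM, when 3.96% of all genes passed. CD36 measured 301, 528 and 648 CPM at 5 µM and 385, 580 and 680 CPM at 10 µM against 253, 319 and 466 with untreated HepG2. Each library was above the one with the same number, although the groups overlapped (unblocked log2 fold changes 0.51 ± 0.31 and 0.66 ± 0.31, adjusted p = 0.642 and 0.2825). At 10 µM CD36 was called with the block (6.74e-05), without the filter (1.14e-09) and without the libraries numbered 1 (0.017).

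MARCO moved the opposite way in the same cultures, to 8.96, 7.87 and 8.73 CPM at 5 µM and 10.8, 6.92 and 7.86 CPM at 10 µM, all below the 3 untreated values of 11.1 to 11.4. Neither dose passed (log2 fold changes -0.40 ± 0.16 and -0.39 ± 0.16, adjusted p = 0.372 and 0.198). Without library 1 at 10 µM MARCO was called there (log2 fold change -0.61, adjusted p = 0.0306). OLR1 remained low at 1.13, 1.72 and 1.77 CPM and at 1.64, 1.68 and 2.38 CPM, against 8.08 to 11.04 CPM in macrophages alone. STAB1 measured 11.6, 17.8 and 22.4 CPM and then 6.65, 21.3 and 21.2 CPM, overlapping with untreated HepG2. CD163 (log2 fold change 0.02 and 0.07) and SCARB1 (-0.12 at both doses) did not pass. The estimated share of HepG2 reads fell over the same groups, from 8.32 to 9.95% through 4.54 to 6.22% to 1.66 to 3.5%. For SCARB1 this took the estimated tumour part from 14.9 to 19.6% down to 3.18 to 6.64% at 10 µM.

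After Huh6 cells had received iMDK, MARCO was lower in the macrophages. The 3 libraries measured 9.45, 9.28 and 9.30 CPM with untreated Huh6, 5.59, 7.63 and 5.36 CPM at 5 µM and 5.00, 5.32 and 4.63 CPM at 10 µM. At 10 µM every value was below those of macrophages alone. MARCO was 1.87-fold lower than with untreated Huh6 (log2 fold change -0.91 ± 0.16, adjusted p = 0.0369), 1 of 7 receptors where 0.0581% of all genes passed (0.0516% lower). The adjusted p exceeded 0.05 in 5 of 6 fits without 1 library (all but that without library 3 with untreated Huh6), with a range of 0.0316 to 0.414, and was 0.304 with only the groups compared, 0.0946 after subtraction of tumour reads and 0.463 without the libraries numbered 1, although the values themselves did not overlap. The call held with the block and by DESeq2. At 5 µM 0 of 7 passed by edgeR or DESeq2, with 0.0129% of all genes called, and MARCO was the 1 with an unadjusted p under 0.05 (-0.60 ± 0.16, adjusted p = 0.328).

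CD163 measured 23.3, 14.4 and 17.7 CPM at 5 µM and 18.6, 11.3 and 13.5 CPM at 10 µM, against 28.2, 19.96 and 22.4 with untreated Huh6. At 10 µM the groups were separate and library 1 was the highest of each (log2 fold change -0.70 ± 0.25, adjusted p = 0.634). With the block, CD163 was called (adjusted p = 0.00163). MERTK stayed at 286 to 311 CPM over both doses, OLR1 at 2.68 to 6.27 CPM, STAB1 at 12.9 to 34.4 CPM, CD36 at 382 to 709 CPM and SCARB1 at 146 to 166 CPM. These ranges overlapped with untreated Huh6 for each gene.

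**Figure D2:**
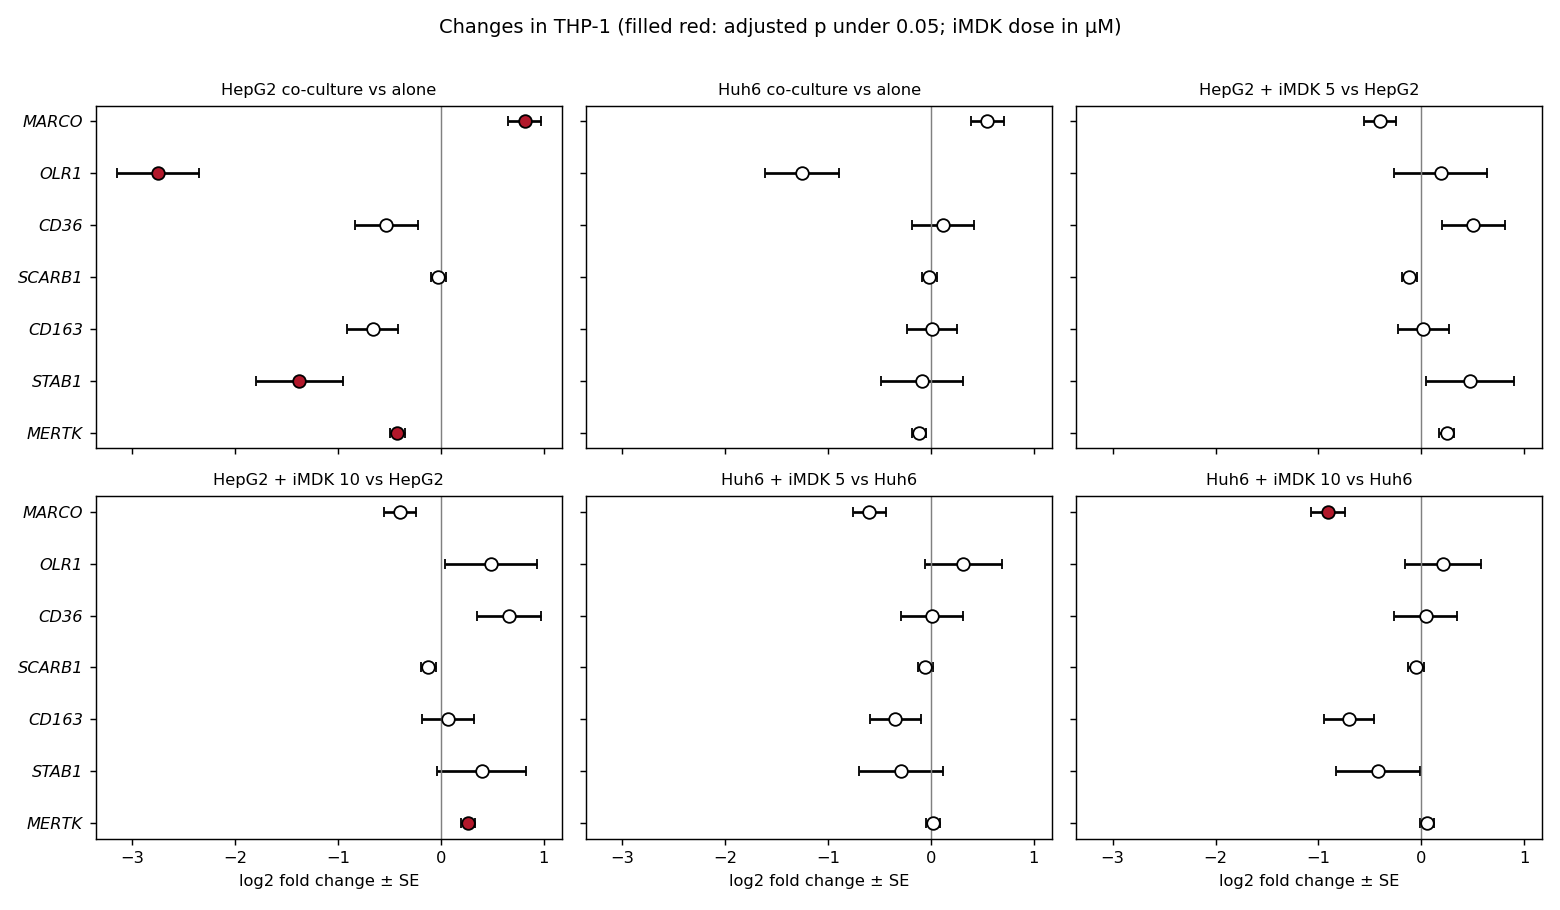
Log2 fold change ± SE (horizontal axis) of the 7 tested receptors (rows) in 6 comparisons of THP-1 macrophages, 3 libraries a group; red points passed an adjusted p of 0.05. MARCO lay at 0.81 and 0.55 in the 2 co-cultures and between -0.39 and -0.91 in the 4 iMDK comparisons, and OLR1 lay at -2.75 and -1.25 in the co-cultures.

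Between the 2 doses edgeR called 0 receptors and 0% of all genes in either co-culture. No receptor had an unadjusted p under 0.05 there, and DESeq2 called 0 of 7 in both. The iMDK effect was not shown to differ between the HepG2 and Huh6 co-cultures for any receptor: 0 of 7 passed at 5 µM, with 0.0129% of all genes called, and 0 of 7 at 10 µM, with 0.0323%. DESeq2 called 0 at both doses, and an unadjusted p under 0.05 was found for 1 at 5 µM (MERTK) and 3 at 10 µM (CD163, MARCO and MERTK). With the block, CD163 (adjusted p = 0.0158) and CD36 (adjusted p = 0.0307) passed at 10 µM. The 5 lists held 2 calls over these 4 comparisons with untreated co-cultures, both with HepG2 at 10 µM, where 3.34% of all genes passed. SIRPA was higher (821 to 1088 CPM, log2 fold change 0.41 ± 0.11, adjusted p = 0.04998) and the liver gene HPX was lower.

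Across the 21 THP-1 libraries the receptors varied along 2 axes, the culture and the library number. Libraries numbered 1 had the lowest CD36 and STAB1 of their group in 7 of 7 groups, the highest CD163 in 7 of 7, the lowest OLR1 in 6 of 7 and the highest SCARB1 in 6 of 7. The mean deviation of libraries numbered 1 from their group mean was -0.50 for CD36, -0.67 for STAB1, -0.37 for OLR1 and 0.36 for CD163 on the log2 scale. CD163 and CD36 thus deviated in opposite ways with the library number. The labels do not say what a number marks.

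**Figure D3:**
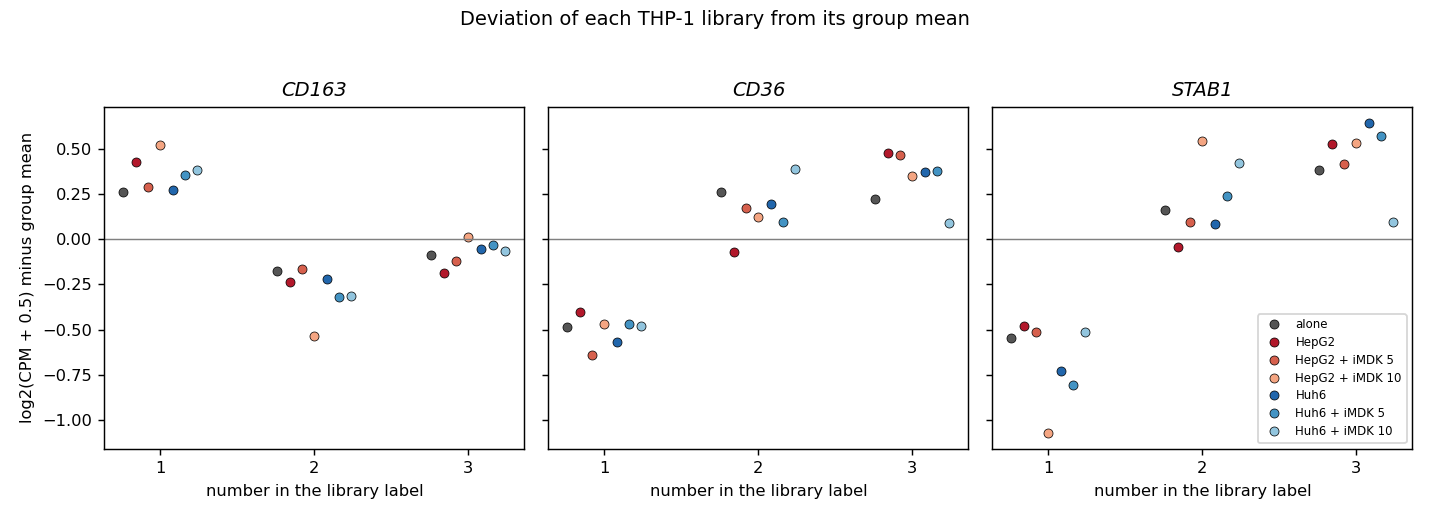
Deviation of log2(CPM + 0.5) from the group mean (vertical axis) in each THP-1 library against the number in its label (horizontal axis), coloured by group. Libraries numbered 1 lay above the group mean for CD163 and below it for CD36 and STAB1 in all 7 groups.

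As a description over 21 libraries that share groups and numbers, CD36 and STAB1 correlated at r = 0.80, STAB1 and OLR1 at 0.77, OLR1 and MERTK at 0.74, and MARCO and MERTK at -0.74. The genes most like each receptor were sought among tested genes of at least 2 mean log2 CPM. DYSF (r = 0.98), HAVCR2 (0.98) and NPL (0.97) followed CD36, TMEM138, PPP1R14B and KIAA0930 (0.92 to 0.94) followed STAB1, and SH3TC1, KCNIP3 and EPB41L3 (0.92 to 0.94) followed OLR1. SMG5, TMEM87B and SLCO2B1 (0.92 to 0.95) followed MERTK. The nearest genes of CD163 were TMEM119, SPNS2 and KIAA1522 (0.85 to 0.89), of MARCO TMEM45A, DENND10 and GADD45A (0.83 to 0.84) and of SCARB1 MPPE1, CCDC8 and TBCD (0.71 to 0.75).

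The tumour lines shared abundant SCARB1 and MERTK with the macrophages, and differed from them and from each other in several of the other receptors. With vehicle, SCARB1 was the most abundant in both, at 391, 393 and 384 CPM in Huh6 and 332, 320 and 324 CPM in HepG2. MERTK followed, at 83.5, 84.2 and 82.8 CPM in Huh6 and 120, 116 and 115 CPM in HepG2. MSR1, close to the floor in THP-1, measured 25.7, 29.2 and 27.6 CPM in Huh6 and had 8 counts over the 3 HepG2 libraries. OLR1 measured 22.7, 19.3 and 21.5 CPM in Huh6 and had 0 counts in HepG2. CD36 was the reverse, at 9.96, 10.9 and 9.21 CPM in HepG2 and under 1 CPM in Huh6.

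All 6 receptors tested between the lines differed, where 80.3% of all genes did. MSR1, OLR1 and CD163 passed the filter here only through Huh6, where they are higher. Their difference was thus largely set by the filter, and the count of 6 is no separate support. MSR1 differed by -7.55 ± 0.21 on the log2 scale (HepG2 against Huh6), CD36 by 4.17 ± 0.23, MERTK by 0.46 ± 0.04 and SCARB1 by -0.29 ± 0.03. OLR1 was at least 413-fold higher in Huh6 (1260 counts against 0) and CD163 at least 42.9-fold higher (131 counts against 0), taking 3 counts over the group as the most that a count of 0 allows. CD163 was nonetheless low in Huh6, at 1.95, 1.74 and 2.92 CPM. MARCO had 4 counts in Huh6 and 0 in HepG2, and STAB1 had 38 and 13.

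**Figure D4:**
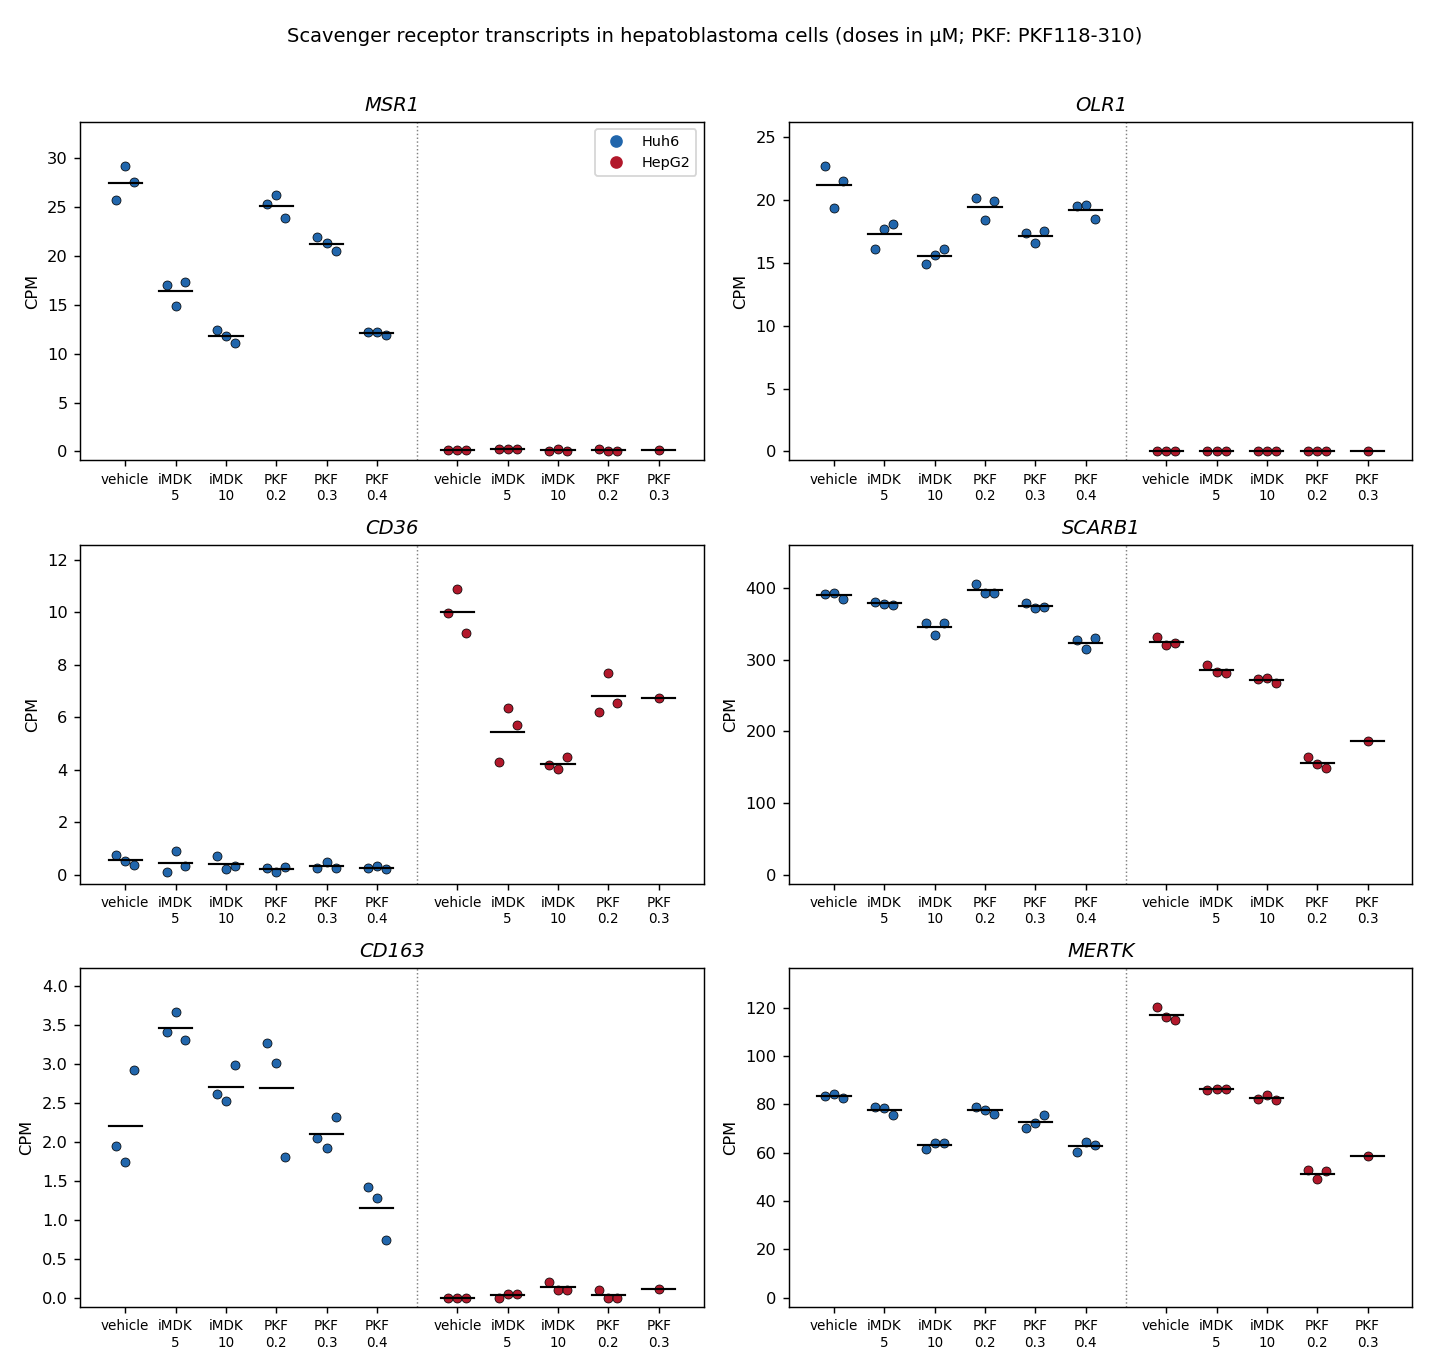
Level of 6 receptors (vertical axis, CPM on a linear scale) in each library of Huh6 (blue) and HepG2 (red) by treatment (horizontal axis, doses in µM); bars give group means, and HepG2 with 0.3 µM PKF118-310 has 1 library. MSR1 in Huh6 lay at 25.7 to 29.2 CPM with vehicle and at 11.1 to 12.4 CPM with 10 µM iMDK.

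In Huh6, MSR1 fell at both iMDK doses. It measured 17.03, 14.9 and 17.3 CPM at 5 µM and 12.4, 11.8 and 11.1 CPM at 10 µM, and the 3 groups did not overlap. The log2 fold changes were -0.74 ± 0.07 (adjusted p = 1.80e-11) and -1.22 ± 0.08 (adjusted p = 9.37e-18). At 10 µM 5 of the 7 tested receptors fell and none rose, where 52.1% of all genes passed and 26.1% fell. The 5 include STAB1, whose fall was largely set by the filter on low counts, as given below.

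OLR1 in Huh6 measured 14.96, 15.7 and 16.1 CPM at 10 µM, below every vehicle value (log2 fold change -0.44 ± 0.08, adjusted p = 2.89e-06). MERTK measured 61.4, 63.9 and 64.2 CPM (-0.40 ± 0.04, adjusted p = 7.07e-12). SCARB1 went from 390 to 346 CPM (-0.17 ± 0.02, adjusted p = 1.11e-07). STAB1 went from 38 to 8 counts over 3 libraries (adjusted p = 0.00466). Its vehicle libraries held 9, 16 and 13 counts, beside at most 7 at 5 µM and 3 at 10 µM. The minimum count of the filter was 10, so STAB1 was tested largely because vehicle was high. Its fall against vehicle was thus largely set by the filter and is no separate support. At 5 µM 5 of 7 passed, STAB1 among them with the same limit, beside 35.6% of all genes. CD163 was the 1 that rose, to 3.41, 3.66 and 3.30 CPM (log2 fold change 0.65 ± 0.21, adjusted p = 0.0152), and this call was lost without vehicle library 1 or 2 or library 2 at 5 µM (adjusted p = 0.0531 to 0.101). MERTK (-0.10) and STAB1 were likewise lost, MERTK at 0.0507 to 0.161 without any 1 library other than library 1 at 5 µM, and STAB1 at 0.0688 to 0.0933 without vehicle library 2 or library 1 or 2 at 5 µM. OLR1 fell by 0.29 ± 0.07.

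PKF118-310 lowered MSR1 in Huh6 from 0.3 µM upward. At 0.2 µM 0 of 7 receptors passed by edgeR or DESeq2, with 2.24% of all genes called, and 3 (CD36, STAB1 and MERTK) had an unadjusted p under 0.05. At 0.3 µM MSR1 measured 21.97, 21.3 and 20.5 CPM (log2 fold change -0.37 ± 0.07, adjusted p = 5.24e-05), and OLR1 (-0.30 ± 0.07) and MERTK (-0.20 ± 0.04) fell as well, 3 of 7 beside 28.5% of all genes. At 0.4 µM MSR1 measured 12.3, 12.2 and 11.9 CPM (-1.18 ± 0.08, adjusted p = 2.35e-17), close to its level with 10 µM iMDK.

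At 0.4 µM 4 of 7 receptors fell and none rose, where 56.8% of all genes passed and 27.9% fell. SCARB1 went to 324 CPM (-0.27 ± 0.03), MERTK to 62.7 CPM (-0.41 ± 0.04) and CD163 to 1.42, 1.28 and 0.739 CPM (-0.94 ± 0.26, adjusted p = 0.00208). OLR1 measured 19.5, 19.6 and 18.5 CPM, overlapping with vehicle (-0.14, adjusted p = 0.0977; it passed with upper-quartile scaling, at 0.0296, and without vehicle library 2, at 0.0302). STAB1 passed without library 2 at 0.4 µM (0.00996), but against the vehicle libraries through which it had largely passed the filter.

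CD36 fell in HepG2 with iMDK. It measured 4.28, 6.35 and 5.72 CPM at 5 µM and 4.17, 4.02 and 4.49 CPM at 10 µM, all below the 9.21 to 10.9 CPM with vehicle (log2 fold changes -0.88 ± 0.13 and -1.25 ± 0.14, adjusted p = 4.68e-07 and 3.91e-10). SCARB1 (286 and 272 CPM) and MERTK (86.4 and 82.7 CPM) fell at both doses too. All 3 tested receptors were thus lower at each dose, beside 47.3% of all genes called at 5 µM and 54.6% at 10 µM (24.1% and 27.2% lower).

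PKF118-310 at 0.2 µM had its largest effect in HepG2 on the 2 most abundant receptors. SCARB1 measured 164, 154 and 149 CPM (log2 fold change -1.06 ± 0.03, adjusted p = 6.57e-27) and MERTK 52.7, 49.0 and 52.5 CPM (-1.19 ± 0.04, adjusted p = 1.29e-25). CD36 measured 6.19, 7.69 and 6.53 CPM (-0.56 ± 0.13, adjusted p = 1.95e-04). All 3 fell, where 67.7% of all genes passed and 33.4% fell. The single library at 0.3 µM had 186 CPM of SCARB1, 58.5 of MERTK and 6.75 of CD36, with no replicate.

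The effect of 0.2 µM PKF118-310 differed between the lines for SCARB1 and MERTK, 2 of 6 receptors beside 54.9% of all genes. In Huh6 the same dose left SCARB1 at 405, 394 and 393 CPM and MERTK at 79.0, 77.6 and 76.2 CPM. The difference of the effects was -1.10 ± 0.04 for SCARB1 (adjusted p = 1.26e-31) and -1.09 ± 0.06 for MERTK (adjusted p = 5.97e-25). For 10 µM iMDK the effects on SCARB1 (difference -0.05, 95% interval -0.14 to 0.03) and MERTK (-0.07, 95% interval -0.18 to 0.04) were not shown to differ between the lines. CD163 passed this test of 10 µM iMDK (41.1% of all genes did), but its value rests on 0 counts in HepG2 with vehicle and 8 with iMDK and gives no fold.

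Genes of the same functions were counted in both lines. These counts are to be read beside the shares of all genes called, which were 52.1% in Huh6 with 10 µM iMDK, 56.8% in Huh6 with 0.4 µM PKF118-310, 54.6% in HepG2 with 10 µM iMDK and 67.7% in HepG2 with 0.2 µM PKF118-310. In haem handling, 8 of 11 tested genes rose in Huh6 with 10 µM iMDK and 1 fell, and 10 rose and 1 fell of 12 in HepG2. HMOX1 (haem oxygenase 1) rose from 196 to 452 CPM in Huh6, the iron exporter SLC40A1 rose from 31 to 62.1 CPM in Huh6 and from 73.0 to 227 CPM in HepG2, and the haem carrier HPX was the gene that fell in each. With PKF118-310, 7 rose and 2 fell of 11 in Huh6 at 0.4 µM, and 11 rose and 1 fell of 12 in HepG2 at 0.2 µM.

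Other scavenger receptors are given beside all genes called, in Huh6, where 52.1% passed with 10 µM iMDK and 56.8% with 0.4 µM PKF118-310, and in HepG2, where 54.6% passed with 10 µM iMDK and 67.7% with 0.2 µM PKF118-310. COLEC12, a class A relative of MARCO, fell in Huh6 from 328 to 192 CPM with 10 µM iMDK and to 183 CPM with 0.4 µM PKF118-310. CD163L1 fell with both as well (-1.02 and -1.46 on the log2 scale), and in all 4 fell and 1 rose of 11 with iMDK, and 2 fell and 2 rose with PKF118-310. In HepG2 3 rose and 2 fell of 12 with 10 µM iMDK, and 3 rose and 4 fell with 0.2 µM PKF118-310. SCARA3 fell with both (11.3 to 5.84 and to 2.90 CPM) and the lysosomal receptor SCARB2 rose with both (4.04 to 8.54 and to 7.09 CPM).

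Genes that act beside MERTK in the uptake of dying cells are given beside 52.1% and 56.8% of all genes called in Huh6 (10 µM iMDK and 0.4 µM PKF118-310) and 54.6% and 67.7% in HepG2 (10 µM iMDK and 0.2 µM PKF118-310). In HepG2 with 0.2 µM PKF118-310, AXL rose from 17.02 to 235 CPM and the ligand PROS1 fell from 132 to 34.2 CPM, with 6 higher and 6 lower of 15 genes tested. In Huh6 PROS1 fell from 40.9 to 29.1 CPM with 10 µM iMDK (3 higher, 8 lower of 16) and to 22.1 CPM with 0.4 µM PKF118-310 (7 and 7 of 16). With 10 µM iMDK in HepG2 7 were higher and 5 lower of 15. The adaptor GULP1 rose in all 4 of these comparisons, from 0.588 to 9.76 CPM in Huh6 with iMDK. In HepG2 with vehicle it stood at 0.0338 CPM on the scale of library totals, so there it passed the filter through treated groups. Its rises in HepG2 were thus largely set by the filter and are no separate support, although the counts above include them.

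Counts of lipid and lysosome genes stand beside the same shares, 52.1% with iMDK and 56.8% with PKF118-310 in Huh6, and 54.6% and 67.7% in HepG2. With 10 µM iMDK, 6 rose and 5 fell of 18 in Huh6, and 8 rose and 4 fell of 18 in HepG2. The cholesterol exporter ABCA1 fell in Huh6 from 171 to 100.3 CPM with iMDK and to 87.0 CPM with 0.4 µM PKF118-310 (6 rose, 8 fell), and 9 rose and 9 fell in HepG2 with 0.2 µM PKF118-310. Endosome and lysosome genes were higher for 5 and lower for 2 of 10 in Huh6 with iMDK, 4 and 4 with PKF118-310, 8 and 1 of 11 in HepG2 with iMDK, and 5 and 4 with PKF118-310. CTSL, a lysosomal protease, rose in Huh6 from 413 to 750 CPM and in HepG2 from 75.3 to 232 CPM with iMDK.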

How the data were processed

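RNA was extracted with RNeasy and poly(A) libraries were prepared with strand marking, per the labels' protocols. Build GRCh38, STAR 2.7.3a, featureCounts, SAMtools 1.16.1 and edgeR 3.36 appear in the submitters' processing notes; which annotation release and strand setting the counting used is not given in the sources used here. Values used are raw counts of reads per gene, as deposited by the authors; 0 per-sample columns were left unused, and the authors' normalized tables were not used here.

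The test was that of edgeR 4.0.16 (R 4.3.3, limma 3.58.1): filterByExpr by group, TMM scaling, two-sided quasi-likelihood F tests in a model of group means, and Benjamini-Hochberg adjustment over all genes tested, with a threshold of 0.05. THP-1, Huh6 and HepG2 were fitted separately, with 1 estimate of the spread each; tests between the tumour lines used 6 groups together. CPM are TMM-scaled except where library totals are named. The SE is the log2 fold change divided by the square root of F, and 95% intervals are normal. Exonic lengths come from GENCODE 29 and promoters from RefSeq. The tumour share of a library is the median, over those hepatoblastoma markers that reach 100 CPM in the matching tumour line group, of the excess over macrophages alone divided by the tumour line level. That group was grown alone for 48 h, whereas the co-cultured tumour cells had 24 h of iMDK and then 24 h of contact. Marker levels may therefore differ between them, and the shares under iMDK are approximate. The share also varied widely between markers (0.857 to 18.2% in library 1 with untreated HepG2). Floors cover counting error only, whereas the 95% intervals also include the estimated spread between libraries.

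The library numbers were taken to pair samples where same-numbered libraries deviated together with r over 0.1 for every number, which held for HepG2 at 5 µM iMDK against untreated (r = 0.143 to 0.386) and for HepG2 at 10 against 5 µM (0.233 to 0.248).

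The 9 members, the 9 gene lists and the comparisons were chosen with earlier results of these data known. Each member is named; of each list, up to 4 genes past the threshold with the largest change in a comparison, and per member the 3 genes of highest Pearson correlation. Genes beyond these (GAS6, PROS1 in THP-1, PECAM1 and the markers) were named after their values were seen, and 1 gene of the lists is not reported here. Alternatives were DESeq2 1.42.0, upper-quartile scaling, no filter, the compared groups alone, the library number as a block, each library left out, and subtraction of the tumour reads. The fit without the 7 THP-1 libraries numbered 1 was added after seeing the data. The fits were tested on simulated data.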

Additional observations from a re-analysis of the deposited data

Results flagged for a closer look

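The effect of 0.2 µM PKF118-310 differed between HepG2 and Huh6 cells in a test of the difference itself for 2 receptors. For SCARB1 the log2 difference of the effects was -1.10 ± 0.04 (edgeR, adjusted p = 1.26e-31) and for MERTK it was -1.09 ± 0.06 (adjusted p = 5.97e-25). Both were lower in 3 of 3 HepG2 libraries than in any HepG2 vehicle library. A difference of this kind was called for 54.9% of all genes tested.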

How the results depend on the processing

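Over 1832 recomputed values, 1739 kept their side of the threshold, 51 lost the threshold, 42 passed it anew and 0 changed sign in a call. Values that passed in neither fit count as kept even where their sign changed. CD163 with Huh6 against alone, for example, ran from -0.14 to 0.16 with each library left out. In THP-1, the number of receptors called with Huh6 against alone (0) was 1 without the filter, 2 with the replicate block and 2 with DESeq2. HepG2 against Huh6 co-culture (3) gave 5 without the filter, 5 with the block, 5 without the libraries numbered 1 and 0 after subtraction of tumour reads. HepG2 with 5 µM iMDK (0) gave 1 without the filter, 2 with the block and 1 with DESeq2. HepG2 with 10 µM (1) gave 2 with the block, and 0 with the compared groups alone and after subtraction; without the filter and without the libraries numbered 1 it stayed at 1, with MERTK lost and CD36 called. Huh6 with 10 µM (1) gave 2 without the filter and with the block, and 0 with the compared groups alone, after subtraction and without the libraries numbered 1. The difference of the 10 µM effects between co-cultures (0) gave 2 without the filter and 2 with the block. The cause of these changes was not tested. The block changed no call of a receptor in the tumour lines. With each library left out in turn, the counts ran from 0 to 2 for HepG2 with 10 µM, 1 to 3 for HepG2 against Huh6 co-culture, 0 to 1 for Huh6 with 10 µM and for Huh6 against alone, 2 to 4 for Huh6 cells with 5 µM iMDK, and 0 to 2 for the difference of the 10 µM iMDK effects between the lines.

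Counts over all genes moved as well. With the block, HepG2 against alone went from 3354 to 5118 genes, HepG2 against Huh6 co-culture from 2586 to 4505, Huh6 against alone from 283 to 927, HepG2 with 10 µM iMDK from 518 to 1802 and with 5 µM from 14 to 614, and HepG2 at 10 against 5 µM from 0 to 22. Huh6 against alone gave 689 genes without the filter, 447 with DESeq2, 55 after subtraction and 81 without the libraries numbered 1. HepG2 with 5 µM gave 320 without the filter, 163 with DESeq2, 52 with the compared groups alone, 380 after subtraction and 191 without the libraries numbered 1. HepG2 with 10 µM gave 854 without the filter, 293 with the compared groups alone and 875 after subtraction. Huh6 with 10 µM (9 genes) ranged from 0 to 167 and with 5 µM (2 genes) from 0 to 111 over these settings. The differences of the effects between co-cultures (2 genes at 5 µM, 5 at 10 µM) reached 95 and 219 after subtraction. Same-numbered libraries correlated at 0.0102 to 0.386 in THP-1, -0.024 to 0.0104 in HepG2 and -0.0378 to 0.00681 in Huh6. MSR1, at 2 to 14 counts, was too low to test in THP-1. With 1 library left out of a group, its spread is assumed to be that of the other groups.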
